A study of Homo sapiens with 6 samples.

Results

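Aminoacyl-tRNA synthetases are the enzymes that join each amino acid to its transfer RNA. Their genes were found in the count tables by symbol (a single letter followed by ARS, alone or with the ending 1, 2, 3 or L2, together with EPRS1, FARSA and FARSB), which gave 38 of the 19923 genes. Of these, 17 have the ending 2, which marks the mitochondrial enzymes, and 21 encode the cytosolic enzymes. They were measured in 6 RNA-seq libraries of poly(A) RNA from Kelly, a neuroblastoma cell line with MYCN amplification, given in the labels as wild type in genotype. In 3 libraries the cells had received a control siRNA (siControl), and in the other 3 an siRNA against METTL3 (siMETTL3), in both cases by transient transfection 72 hours earlier. METTL3 is the enzyme that places N6-methyladenosine on mRNA. All libraries come from 1 cell line, and the labels do not say whether the replicates were separate cultures, so the p-values measure the spread between these libraries, which may be technical.

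Protein synthesis runs on charged tRNA, and a synthetase is needed for every amino acid in the cytosol and again in the mitochondrion, where a separate set of ribosomes translates the mitochondrial genome. Most amino acids have an enzyme gene for each compartment. Lysine and glycine share a gene, since KARS1 and GARS1 each give a cytosolic and a mitochondrial form, and mitochondrial glutaminyl-tRNA is made by an indirect route through EARS2 and an amidotransferase. In the cytosol several synthetases are held together with the scaffold proteins AIMP1, AIMP2 and EEF1E1 in the multisynthetase complex. Many cytosolic synthetase genes are known as targets of ATF4, the transcription factor that is translated when amino acids run short or the endoplasmic reticulum is stressed. It acts through the C/EBP-ATF response element.

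The libraries held between 15430000 and 21565013 counts, and siControl replicate 3 was the shallowest. METTL3 itself was measured at 53.5, 52.8 and 56.2 CPM in the siControl libraries and 32.99, 31.8 and 34.3 CPM in the siMETTL3 libraries (log2 fold change -0.71, FDR 4.68e-06), so that 61.0% of the control level remained. The counts cover introns too, so this is not the level of mature METTL3 mRNA alone. Levels are given in CPM, a gene's share of the counts of its library after TMM scaling, the fold changes are siMETTL3 over siControl, and FDR is the adjusted p-value of edgeR's quasi-likelihood test over all 15311 tested genes, with a threshold of 0.05. The 7 noradrenergic neuroblastoma markers that were checked were present in every library, with a sum of 4854 to 5384 CPM in siControl and 7375 to 7797 CPM in siMETTL3, and 5 of them were higher in siMETTL3, where 18.6% of all tested genes were. The sums over the 3 leukocyte markers were 0 to 0.450 CPM in siControl and 0.0919 to 0.487 CPM in siMETTL3, with CD3E at 0 in all libraries but siControl replicate 1. Those over the 3 endothelial markers were 4.98 to 5.91 and 6.95 to 9.25 CPM, mostly VWF, which rose (log2 fold change 0.68, FDR 0.00592), while PECAM1 was lower without passing (-0.95, FDR 0.143) and CDH5 was near 0 in both groups. The 5 mesenchymal markers summed to 88.5 to 101 and 93.0 to 97.7 CPM, nearly all of it PDGFRB, which did not pass. Of the 4 that were tested 2 rose, COL1A1 (0.86, FDR 0.0200) and PRRX1 (0.90, FDR 0.0103), both at a few CPM. The 3 epithelial markers summed to 6.31 to 7.05 and 5.99 to 8.36 CPM. The part of these markers, and of the higher neuroblastoma sum, VWF, COL1A1 and PRRX1 in siMETTL3, in the results was not tested.

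Most cytosolic synthetase genes fell in siMETTL3, with log2 fold changes down to -0.69, whereas the mitochondrial genes changed in both directions and most did not pass the test. Of the 21 cytosolic genes, 14 fell, 0 rose and 7 did not pass the test, where 19.2% of all tested genes fell and 18.6% rose (37.8% in either direction). Of the 17 mitochondrial genes, 4 fell (23.5%), 2 rose (11.8%) and 11 did not pass, so calls among them were about as frequent as among all tested genes. All 38 genes passed the filter on low counts and were tested. The median log2 fold change was -0.34 for the cytosolic genes and -0.048 for the mitochondrial genes, against -0.0021 for all tested genes. In 15 cytosolic genes the CPM of all 3 siMETTL3 libraries lay below all 3 siControl libraries and in 0 they lay above, where 25.1% of all tested genes lay entirely below and 24.8% entirely above. Among the mitochondrial genes 6 lay below and 4 above. In bulk RNA a lower share of the library cannot be told apart from fewer cells of a type or from less RNA per cell.

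Summed over the 21 genes, the cytosolic synthetases took 3518 ± 74.9 CPM in siControl (SD, n = 3) and 2740.4 ± 26.9 CPM in siMETTL3 (SD, n = 3), or 77.9% of the control sum. The lowest siControl library (3436 CPM) lay well above the highest siMETTL3 library (2767 CPM). The 17 mitochondrial synthetases took 1348 ± 22.1 CPM in siControl and 1287 ± 14.2 CPM in siMETTL3, 95.5% of the control sum. IARS2, the mitochondrial isoleucyl enzyme, made up more than that difference. Without it the 16 others summed to 1188 ± 29.5 and 1198 ± 13.1 CPM, and the groups overlapped. IARS2 was taken out after its value had been seen.

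**Figure D1:**
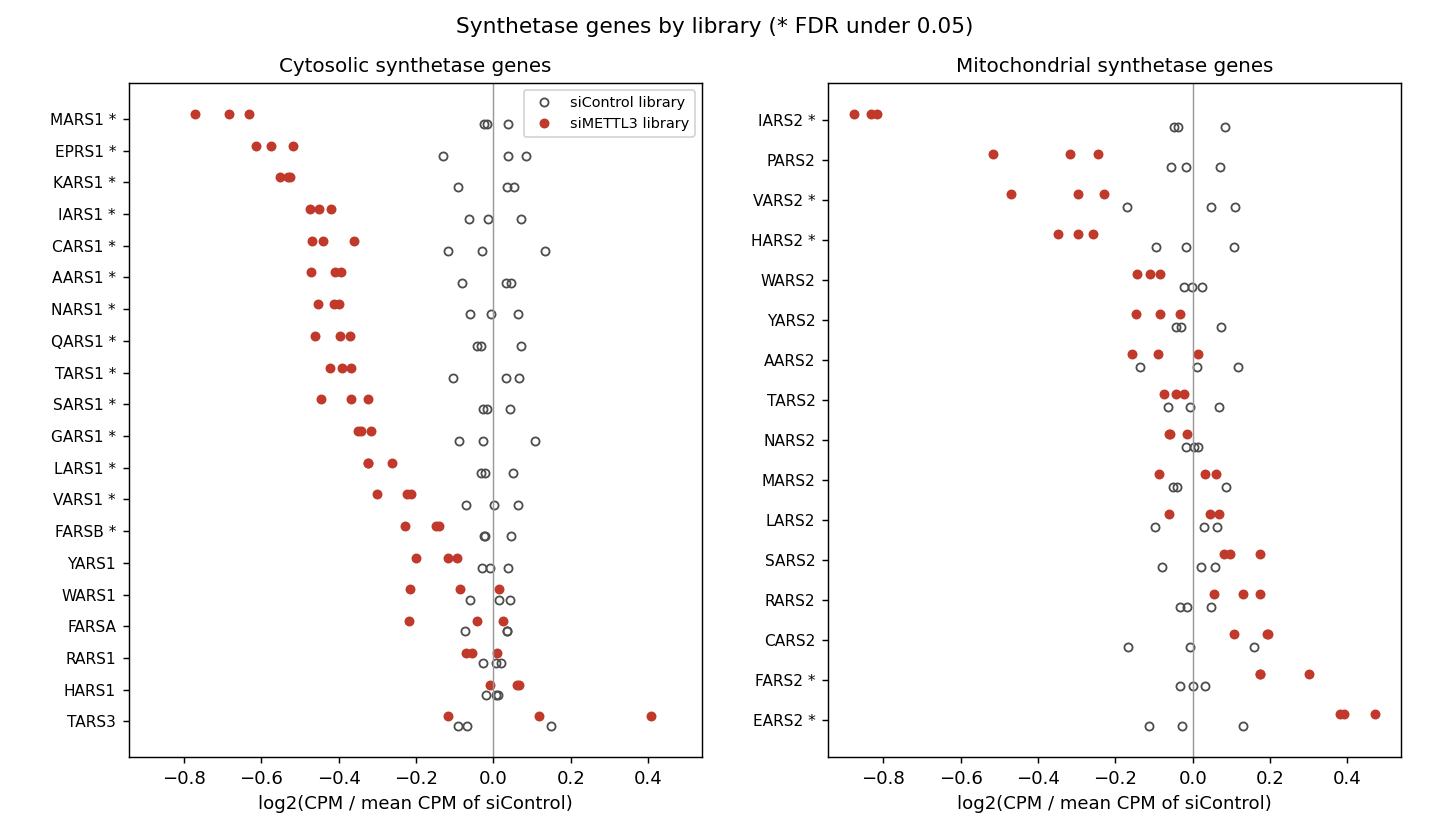
Each point is 1 library, placed by the log2 ratio of its CPM to the siControl mean of the gene (x axis), with cytosolic genes on the left and mitochondrial genes on the right, ordered by fold change; an asterisk marks an FDR under 0.05. The siMETTL3 points (red) lie left of the siControl points (open) in the upper 15 cytosolic genes, from MARS1 to YARS1, while the mitochondrial genes spread to both sides, from IARS2 to EARS2.

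The enzymes of the multisynthetase complex held the 4 largest falls among the cytosolic genes. Of its 8 enzyme genes, 6 fell and 2 did not pass (median log2 fold change -0.43), beside 19.2% lower among all tested genes. Most cytosolic enzymes outside the complex fell too, as given below. MARS1, methionyl-tRNA synthetase (chromosome 12, 57475445 to 57517569, plus strand), was measured at 230.0, 222 and 220.1 CPM in the siControl libraries and 145, 139 and 131 CPM in the siMETTL3 libraries (log2 fold change -0.69, SE 0.0570, FDR 1.05e-06). Every siMETTL3 library was far below every siControl library, and 61.8% of the control level remained. EPRS1, a single protein that charges both glutamate and proline (chromosome 1, 219968600 to 220046530, minus strand), was at 371, 416 and 430.0 CPM in siControl and 265, 272 and 283 CPM in siMETTL3 (log2 fold change -0.57, SE 0.0640, FDR 1.59e-05). The siControl value of replicate 1 was the lowest of the controls and still lay above all siMETTL3 libraries. KARS1, which supplies lysyl-tRNA synthetase to both compartments (chromosome 16, 75627474 to 75648643, minus strand), was at 145, 160.2 and 158 CPM in siControl and 107, 105 and 107 CPM in siMETTL3 (log2 fold change -0.54, SE 0.0578, FDR 1.10e-05). Its siMETTL3 libraries lay within 2 CPM of each other. IARS1, isoleucyl-tRNA synthetase (chromosome 9, 92210207 to 92293756, minus strand), was at 305, 315 and 334 CPM in siControl and 229, 233 and 238 CPM in siMETTL3 (log2 fold change -0.45, SE 0.0561, FDR 3.86e-05), again without overlap.

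QARS1 and LARS1, the glutaminyl and leucyl enzymes of the complex, fell less. QARS1 went from 111 ± 4.88 to 83.5 ± 2.62 CPM (log2 fold change -0.41, SE 0.0593, FDR 1.34e-04) and LARS1 from 272 ± 8.62 to 220.2 ± 5.59 CPM (log2 fold change -0.30, SE 0.0542, FDR 6.59e-04). RARS1, the arginyl enzyme, which is also in the complex, did not pass the test. It was at 77.9 ± 1.27 CPM in siControl and 75.8 ± 2.26 CPM in siMETTL3 (log2 fold change -0.038, SE 0.0580, FDR 0.647), and the groups overlapped.

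Among the cytosolic enzymes outside the complex, 8 of 13 fell, beside the same 19.2% of all tested genes. CARS1, cysteinyl-tRNA synthetase (chromosome 11, 3000922 to 3057613, minus strand), was measured at 61.9, 55.3 and 52.0 CPM in the siControl libraries and 43.98, 41.6 and 40.8 CPM in the siMETTL3 libraries (log2 fold change -0.43, SE 0.0765, FDR 6.87e-04). AARS1, alanyl-tRNA synthetase (chromosome 16, 70252295 to 70289543, minus strand), was at 282, 279 and 258 CPM in siControl and 208, 206 and 197 CPM in siMETTL3 (log2 fold change -0.43, SE 0.0569, FDR 6.83e-05). NARS1, asparaginyl-tRNA synthetase (chromosome 18, 57600656 to 57622213, minus strand), was at 131, 143 and 136 CPM in siControl and 99.8, 103 and 104 CPM in siMETTL3 (log2 fold change -0.42, SE 0.0568, FDR 7.36e-05). In these 3 genes the siMETTL3 libraries kept between 74.5% and 74.7% of the control level and the groups did not overlap. TARS1 (threonine), SARS1 (serine), GARS1 (glycine, both compartments) and VARS1 (valine) had log2 fold changes of -0.39, -0.38, -0.34 and -0.25, with FDR values of 1.88e-04, 1.57e-04, 6.89e-04 and 0.00411. FARSB, the beta subunit of phenylalanyl-tRNA synthetase, had the smallest fall (log2 fold change -0.17, SE 0.0548, FDR 0.0234). Its call was lost without siControl replicate 2 (FDR 0.0585) and without siMETTL3 replicate 1, 2 or 3 (FDR 0.0685, 0.112 and 0.0541).

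The 5 other cytosolic genes did not pass. FARSA, the alpha subunit that works together with FARSB, had a log2 fold change of -0.074 (SE 0.0730, FDR 0.461), with overlapping groups. YARS1 and WARS1, the tyrosyl and tryptophanyl enzymes, had -0.14 (FDR 0.0708) and -0.094 (FDR 0.426). For YARS1 the siMETTL3 libraries all lay below the siControl libraries, and it passed the test without siControl replicate 3 (FDR 0.0299). HARS1 was at 0.040 (FDR 0.651). TARS3, a threonyl enzyme gene with far fewer counts than the rest, was at 4.68, 4.60 and 5.44 CPM in siControl and 6.51, 5.33 and 4.53 CPM in siMETTL3, and its log2 fold change of 0.16 had an SE of 0.177; the groups overlapped.

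The cytosolic genes were divided by a list, written from general knowledge, of 12 enzymes widely described as ATF4 targets. The list was chosen with earlier results of these data known, so the division is not independent of them. Of the 12 listed enzymes, 10 fell, 0 rose and 2 (WARS1 and YARS1) did not pass, and the median log2 fold change was -0.41. Among all tested genes 19.2% were lower and 18.6% higher. Of the 9 other cytosolic enzymes, 4 fell (KARS1, QARS1, VARS1 and FARSB), 0 rose and 5 did not pass, with a median of -0.074. Summed levels went from 2419.6 to 2546 CPM in siControl to 1844 to 1862 CPM in siMETTL3 for the former, and from 1016 to 1042 to 869 to 906 CPM for the latter, without overlap in either. By catalytic fold, 7 of 10 class I and 7 of 11 class II cytosolic genes fell (medians -0.36 and -0.34), with the bifunctional EPRS1 counted in class I. The differences between these lists were not tested.

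Several of the cytosolic genes that fell share a short promoter sequence. RefSeq promoters (build GRCh38.p14, 250 bases before to 50 after a start site, with more than 1 start for some genes) were found for 30 of the 38 members. The motif TGATGNAA, the core of the C/EBP-ATF response element, was searched on both strands; it overlaps no other motif searched except its own full form, given next. It was present in 7 of 16 cytosolic genes and in 1 of 14 mitochondrial genes, against 4.46% of all 27305 gene symbols in the table and 3.19% of the 11813 tested genes with a promoter. All 7 cytosolic genes with a match were among those that fell (7 of 12 with a promoter), and none of the 4 cytosolic genes with a promoter that did not pass held one. All 7 are also on the list of ATF4 targets above, so this count is not independent of that list. In 6 of the 7 the variable base was C (TGATGCAA, or TTGCATCA on the other strand). This form was present in 1.08% of all 27305 gene symbols and 0.804% of the tested genes with a promoter. It was chosen for counting after the matches had been seen. The stretches of 30 bases around each match are shown 5′ to 3′ on the gene's own strand, with the match in capitals, because this is the sequence that 7 of the cytosolic genes that fell have in common.
MARS1: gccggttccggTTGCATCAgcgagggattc
IARS1: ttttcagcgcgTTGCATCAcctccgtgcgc
CARS1: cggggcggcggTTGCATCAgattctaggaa
AARS1: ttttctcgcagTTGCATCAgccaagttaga
TARS1: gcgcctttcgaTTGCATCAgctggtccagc
NARS1: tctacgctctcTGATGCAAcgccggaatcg
GARS1: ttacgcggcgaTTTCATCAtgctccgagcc
YARS2: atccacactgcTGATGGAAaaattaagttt
Counting the start base as 1, the match began at -4 in MARS1 (chr12:57488053-57488082, plus strand), -13 in IARS1 (chr9:92293692-92293721, minus strand), -2 in CARS1 (chr11:3057407-3057436, minus strand), 3 in TARS1 (chr5:33440956-33440985, plus strand), 15 in NARS1 (chr18:57621804-57621833, minus strand) and -33 in GARS1 (chr7:30594834-30594863, plus strand), all close to a start site. It lay farther upstream in AARS1, at -187 (chr16:70289675-70289704, minus strand), and in YARS2, at -197 (chr12:32756076-32756105, minus strand), the only mitochondrial gene with a match, which did not pass the test (log2 fold change -0.087, FDR 0.266). A match is a string of letters in this window and no measurement of binding.

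In the mitochondrial set, 1 gene stood out among those that fell. IARS2, mitochondrial isoleucyl-tRNA synthetase (chromosome 1, 220094132 to 220148041, plus strand), was measured at 154, 155 and 169 CPM in the siControl libraries and 89.6, 86.9 and 90.6 CPM in the siMETTL3 libraries (log2 fold change -0.84, SE 0.0583, FDR 2.22e-07), the largest change of all 38 members. The siMETTL3 libraries were nearly alike and kept 55.8% of the control level. IARS2 lies 47601 bases from EPRS1 on the opposite strand, with 1 other gene of the table, BPNT1, between them. No TGATGNAA match was found in the IARS2 or EPRS1 promoter windows.

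Other falls were smaller and rested in part on single libraries. VARS2 (valine) went from 47.9 ± 4.72 to 38.2 ± 3.21 CPM (log2 fold change -0.33, SE 0.0879, FDR 0.00888) and lost its call without siMETTL3 replicate 3 (FDR 0.0572). HARS2 (histidine) went from 40.3 ± 2.85 to 32.7 ± 1.02 CPM (log2 fold change -0.30, SE 0.0776, FDR 0.00738) and lost it without siControl replicate 2 (FDR 0.0507). Without siControl replicate 2 the mitochondrial set had 2 falls, those of IARS2 and VARS2.

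The genes that rose were both mitochondrial. EARS2, which charges glutamate in the mitochondrion (chromosome 16, 23522016 to 23557731, minus strand), was measured at 68.7, 61.6 and 58.0 CPM in the siControl libraries and 81.7, 82.4 and 87.1 CPM in the siMETTL3 libraries (log2 fold change 0.41, SE 0.0698, FDR 4.34e-04). All siMETTL3 libraries lay above all siControl libraries. FARS2, mitochondrial phenylalanyl-tRNA synthetase (chromosome 6, 5261044 to 5829192, plus strand), was at 161, 157 and 164 CPM in siControl and 198, 181 and 181 CPM in siMETTL3 (log2 fold change 0.22, SE 0.0572, FDR 0.00852). Its groups did not overlap either, but the call was lost without siControl replicate 2 (FDR 0.0502) or siMETTL3 replicate 1 (FDR 0.0709). The FARS2 span is by far the longest of the set, and the counts cover introns. The EARS2 span shares 11 bases with that of UBFD1, which went the other way (log2 fold change -0.29).

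The 11 mitochondrial genes that did not pass had log2 fold changes from -0.36 to 0.16. PARS2 (proline), the least abundant of them, was at 8.39, 8.91 and 8.16 CPM in siControl and 5.93, 7.17 and 6.82 CPM in siMETTL3 (FDR 0.0546). The groups did not overlap, and it passed without siControl replicate 3 (FDR 0.0473) and in the fit on genes without overlaps (FDR 0.0427). CARS2 (cysteine), at 0.16 (FDR 0.116), passed as higher without siControl replicate 1 (FDR 0.00791). WARS2, YARS2, AARS2, TARS2 and NARS2 were between -0.11 and -0.045, and MARS2, LARS2, SARS2 and RARS2 between 0.0016 and 0.12.

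Levels were compared between genes per length, as CPM per kb of merged exons in siControl (SD, n = 3). SARS1 was highest on this scale at 108 ± 2.91, followed by GARS1 (84.3 ± 5.96), EPRS1 (83.1 ± 6.36) and MARS1 (77.3 ± 1.86), and the last 3 did not differ beyond their spread. VARS1 (68.9 ± 3.19), IARS1 (66.8 ± 3.19) and AARS1 (64.6 ± 3.05) came next, also within their spread of each other. At the low end were WARS1 (5.62 ± 0.210) and TARS3 (1.39 ± 0.131). Among the mitochondrial genes YARS2 (67.9 ± 3.05), FARS2 (68.2 ± 1.55) and IARS2 (45.2 ± 2.32) were highest and PARS2 (3.60 ± 0.162) lowest. The order depends on the length used, since the counts of every gene with introns can include intron reads. Per kb of the whole span VARS1 (16.5) and QARS1 (12.1) stood above SARS1 (8.82), FARS2 stood at 0.283, and MARS2, which has no intron, was highest of the mitochondrial genes (10.0). YARS2 shares 18161 bases of its span with DNM1L. In siMETTL3, SARS1 (83.1 ± 3.54) was still the highest of the cytosolic genes per kb of exon, while EPRS1 (56.0 ± 1.88) and MARS1 (47.8 ± 2.32) were below VARS1 (58.2 ± 1.89), though EPRS1 was within their combined spread.

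**Figure D2:**
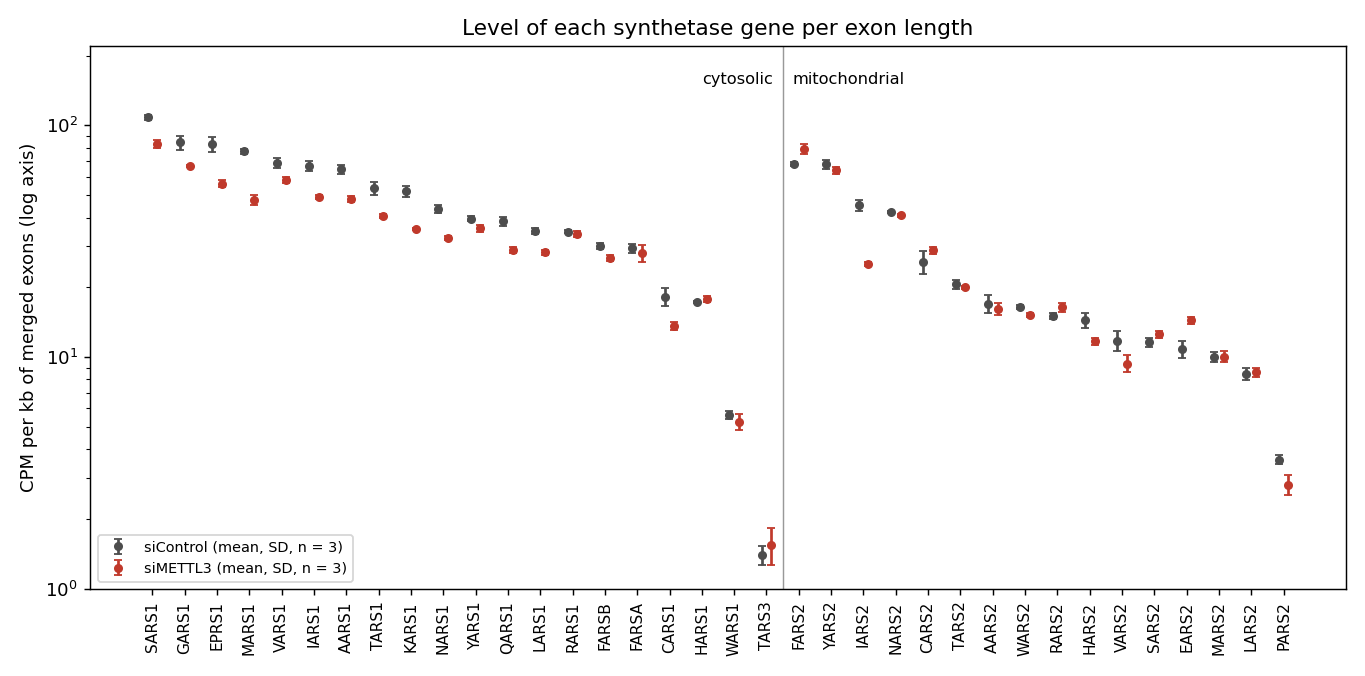
Each gene's level in CPM per kb of merged exons (y axis, log scale), as mean and SD over 3 libraries for siControl (grey) and siMETTL3 (red), ordered by siControl level within the cytosolic (left) and mitochondrial (right) genes. The red points sit below the grey ones from SARS1 to NARS1, and TARS3, WARS1 and PARS2 are the lowest.

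The contrast between compartments was followed amino acid by amino acid, as the log2 ratio of the counts of the cytosolic gene to those of its mitochondrial counterpart within a library. This ratio does not depend on how libraries are scaled, but it does depend on gene length, so only its change is compared. The largest change was that of EPRS1 to EARS2, with ratios of 2.43, 2.76 and 2.89 in siControl and 1.70, 1.73 and 1.70 in siMETTL3. The siMETTL3 values were nearly equal to each other and the mean change was -0.99, with EPRS1 lower and EARS2 higher. For MARS1 to MARS2 the ratios were 2.84, 2.91 and 2.91 in siControl and 2.19, 2.17 and 2.20 in siMETTL3, a mean change of -0.70. The ratio was also lower in every siMETTL3 library than in any siControl library for CARS1 to CARS2 (-0.59), SARS1 to SARS2 (-0.50), FARSB to FARS2 (-0.39), NARS1 to NARS2 (-0.38), AARS1 to AARS2 (-0.35), TARS1 to TARS2 (-0.35), LARS1 to LARS2 (-0.32), FARSA to FARS2 (-0.29) and RARS1 to RARS2 (-0.16).

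The isoleucine and histidine pairs went the other way. IARS1 to IARS2 had ratios of 0.98, 1.02 and 0.99 in siControl and 1.35, 1.42 and 1.39 in siMETTL3 (mean change 0.39), with a lower level of both genes. HARS1 to HARS2 was higher by 0.34, without overlap of the libraries. For VARS1 to VARS2, WARS1 to WARS2, YARS1 to YARS2 and EPRS1 to PARS2 the groups overlapped, with mean changes of 0.083, 0.018, -0.050 and -0.21. The ratios are given without a test, since 3 libraries against 3 allow no exact two-sided permutation p-value under 0.1.

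**Figure D3:**
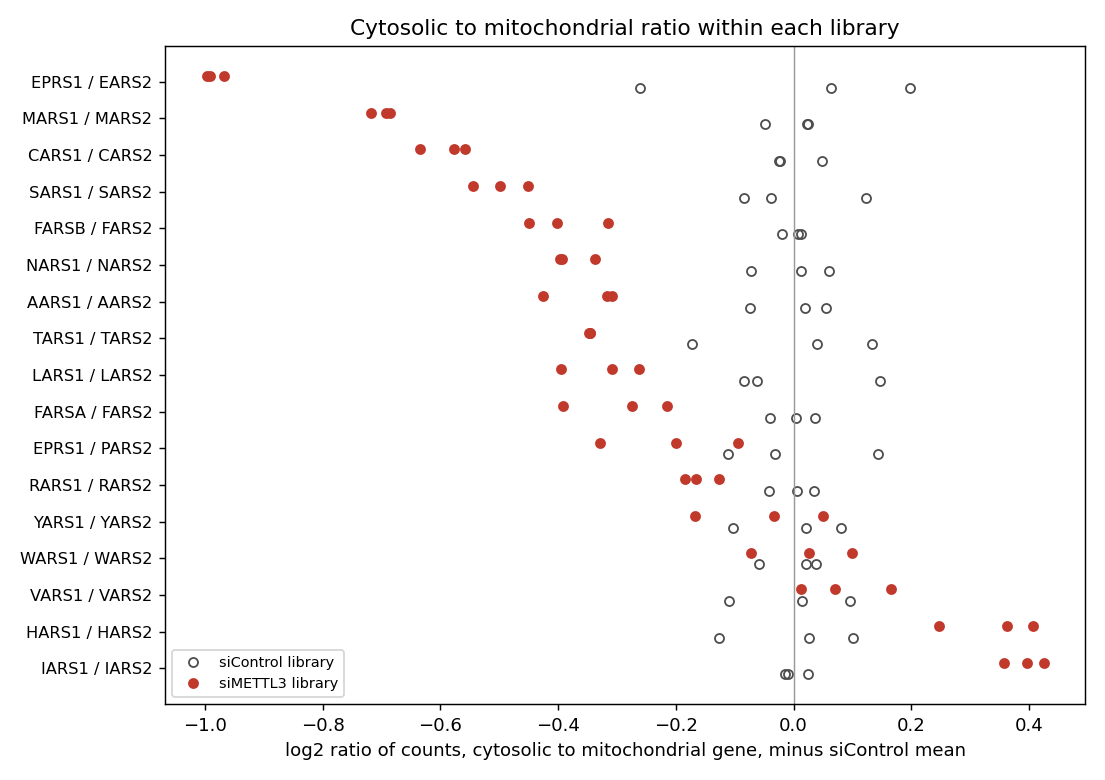
Each point is 1 library, placed by its log2 ratio of counts of the cytosolic to the mitochondrial gene for one amino acid, minus the siControl mean (x axis); siControl points are open and siMETTL3 points are red. In the upper 10 pairs, from EPRS1 / EARS2 to FARSA / FARS2, all red points lie left of the open ones, and they lie to the right for HARS1 and IARS1.

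HARS1 and HARS2 are a special pair, since they start next to each other on opposite strands and their spans share 108 bases (chromosome 5, 140673904 to 140691537, minus strand, and chromosome 5, 140691430 to 140699305, plus strand). HARS1 was measured at 58.2, 57.1 and 58.1 CPM in the siControl libraries and 60.3, 57.4 and 60.5 CPM in the siMETTL3 libraries (log2 fold change 0.040, SE 0.0611, FDR 0.651), with overlapping groups. HARS2 was at 39.8, 43.3 and 37.7 CPM in siControl and 31.6, 33.7 and 32.8 CPM in siMETTL3, and all siMETTL3 libraries lay below the siControl libraries. The HARS2 span also shares 626 bases with ZMAT2, which rose (log2 fold change 0.34, FDR 0.00601), and the count tables do not separate reads by strand.

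Overlap with other genes touched 12 of the 38 members (5 cytosolic and 7 mitochondrial), against 33.1% of all genes in the table. A read in an overlap was counted for each gene. AARS2 and SARS2 share 14617 and 15493 bases with the models AL353588.1 and AC011455.2. The MARS1 span shares 13370 bases with ARHGAP9 and 982 with DDIT3, which both fell (log2 fold changes -0.62 and -0.78) and stood at 16.2 and 14.7 CPM in siControl, far below MARS1. Reads of MARS1 in the shared bases can be counted for ARHGAP9 and DDIT3 too, and their part in those falls was not tested. KARS1 shares 871 bases with TERF2IP, which fell by less (-0.26). Of the 16 cytosolic genes without any overlap 12 fell, and of the 10 such mitochondrial genes 2 fell and 1 rose. Among all tested genes 19.2% fell and 18.6% rose.

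GGACT, a sequence context in which N6-methyladenosine is often found, occurred at a median of 1.10 per kb in the canonical transcripts of the cytosolic genes and 1.63 per kb in those of the mitochondrial genes. The median was 1.15 per kb in the 18 members that fell and 0.929 per kb over 14591 tested genes. The range among the cytosolic genes was 0.210 to 2.46. The modification itself is not in these tables.

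Genes that work beside the synthetases were counted from lists written from general knowledge, but with earlier results of these data known. Of 16 cytosolic companions 9 fell, 3 rose and 4 did not pass, beside 19.2% lower and 18.6% higher among all tested genes (median log2 fold change -0.24). EEF1G, a subunit of the elongation factor complex that recharges eEF1A, was at 606, 604 and 598 CPM in siControl and 427, 407 and 415 CPM in siMETTL3 (log2 fold change -0.53, SE 0.0530, FDR 5.50e-06). EEF1A1, which carries charged tRNA to the ribosome, went from 1353 ± 43.8 to 949.8 ± 29.7 CPM (log2 fold change -0.51, SE 0.0567, FDR 1.40e-05), and to -0.22 with an offset for intron length (FDR 0.0332). XPOT, which exports tRNA from the nucleus, went from 204 ± 5.84 to 151 ± 0.193 CPM (log2 fold change -0.43, SE 0.0530, FDR 3.34e-05). The largest fall of the list, named after its value had been seen, was that of EEF1B2 (-1.02, SE 0.124). EEF1A2, the form of eEF1A used in neurons and muscle, rose from 271 ± 4.63 to 377 ± 29.8 CPM (log2 fold change 0.48, SE 0.0628, FDR 6.05e-05). EEFSEC, the elongation factor for selenocysteine, rose from 154 ± 15.7 to 239 ± 4.72 CPM (log2 fold change 0.63, SE 0.0694, FDR 1.32e-05).

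Of the 3 scaffolds of the multisynthetase complex, 2 were called lower, by small amounts, beside 19.2% of all tested genes. AIMP1 went from 58.1 ± 3.93 to 47.7 ± 3.56 CPM (log2 fold change -0.28, SE 0.0762, FDR 0.0102) and lost its call without siMETTL3 replicate 2 (FDR 0.0624). EEF1E1 was close to the threshold (log2 fold change -0.18, SE 0.0654, FDR 0.0476). It was past the threshold in only 1 of the 6 fits that left out a library, the one without siControl replicate 1 (FDR 0.00874); the other 5 gave FDR values of 0.143 and 0.0886 (siControl replicates 2 and 3) and 0.131, 0.163 and 0.0687 (siMETTL3 replicates 1 to 3). With all libraries in the fit its call was also lost with upper quartile scaling (FDR 0.0680), total count scaling (0.0763), the stricter count filter (0.0541), DESeq2 (0.0768), limma-voom (0.0545) and non-robust dispersions (0.050017), so that it held in 5 of 16 alternatives. AIMP2, named here after its value had been seen, was at 101 ± 2.08 CPM in siControl and 104 ± 4.95 CPM in siMETTL3 (log2 fold change 0.034, SE 0.0585, FDR 0.692).

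Of 13 mitochondrial companions 6 fell, 0 rose and 7 did not pass, beside the same 19.2% and 18.6% (median log2 fold change -0.060). The elongation factors GFM1 and GFM2 fell most clearly, GFM1 from 139 ± 3.86 to 111 ± 5.31 CPM (log2 fold change -0.33, SE 0.0580, FDR 6.17e-04) and GFM2 from 80.6 ± 3.70 to 62.5 ± 4.55 CPM (log2 fold change -0.37, SE 0.0687, FDR 9.13e-04). TSFM (-0.23, FDR 0.0105), GATB, a subunit of the amidotransferase that makes glutaminyl-tRNA (-0.25, FDR 0.0190), and the initiation factor MTIF2 (-0.24, FDR 0.0193) were lower. Each of these 3 calls was lost in at least 1 fit that left out a library. TSFM lost it without siMETTL3 replicate 3 (FDR 0.0558), GATB without siControl replicate 1 or either of siMETTL3 replicates 1 and 3 (FDR 0.0536, 0.0947 and 0.0769), and MTIF2 without siMETTL3 replicate 1, 2 or 3 (FDR 0.0663, 0.0630 and 0.0551).

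Beside the cytosolic synthetases, 10 of 12 amino acid response genes fell, 1 rose and 1 did not pass, against 19.2% and 18.6% of all tested genes (median log2 fold change -0.76), where results for several of them were known when the list was written. Among those that fell was DDIT3, whose count can include MARS1 reads from the 982 bases that their spans share. ATF4 was at 264, 271 and 269 CPM in siControl and 149, 146 and 156 CPM in siMETTL3 (log2 fold change -0.84). SLC7A11, the cystine transporter, went from 61.6 ± 6.75 to 26.8 ± 0.487 CPM (log2 fold change -1.20, SE 0.0836, FDR 2.39e-07). ASNS, PHGDH and CHAC1, for asparagine synthesis, serine synthesis and glutathione breakdown, had log2 fold changes of -1.03, -0.90 and -1.80. The gene that rose was SLC7A5, a transporter of large neutral amino acids (0.27, FDR 0.00939), and EIF2AK4, the kinase GCN2 that senses uncharged tRNA, did not pass (-0.074, FDR 0.379).

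**Figure D4:**
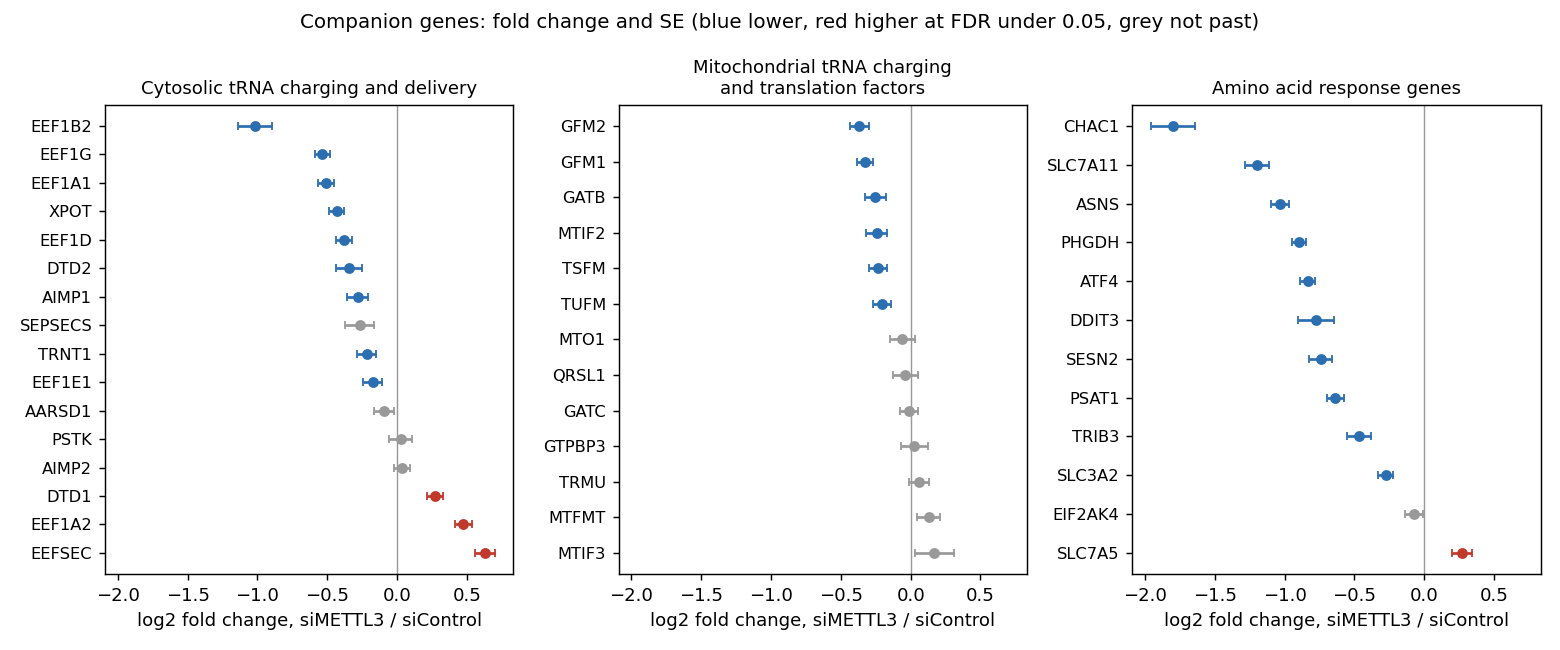
Fold changes of the companion genes (x axis, log2 of siMETTL3 over siControl) with their SE, in 3 lists; blue marks genes lower and red genes higher at an FDR under 0.05, and grey those that did not pass. The cytosolic list runs from EEF1B2 to EEFSEC on both sides of 0, the mitochondrial list shows 6 falls, none larger than that of GFM2, and the amino acid response genes reach down to CHAC1.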

How the data were processed

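Poly(A) RNA-seq was available for 3 siControl and 3 siMETTL3 libraries of Kelly cells, grouped by sample title. The authors deposited a table of raw counts for each library, with 19923 protein-coding genes. Per the file headers, they counted reads over whole gene spans, introns included, with featureCounts 1.5.3 and GENCODE release 33, each read once for every gene it overlaps and without regard to strand; the call recorded there does not switch on the counting of read pairs, so read ends may have been counted singly. Per the submitters' processing notes, FastQC 0.11.5, Trimmomatic 0.36 and HISAT2 2.1.0 were also used, on GRCh38. Overlapping and near-identical genes can therefore share reads. The headers name alignments handled with Picard, and the step is not given in the sources used here.

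Genes were filtered with filterByExpr, scaled by TMM and tested with edgeR 4.0.16 in R 4.3.3 (quasi-likelihood F-test, robust dispersions, all 6 libraries, no covariate), with Benjamini-Hochberg adjustment over 15311 genes. Each SE was taken from the log2 fold change and its F statistic. The fit was tested on simulated counts. No pair of libraries in a group agreed within sampling noise (chi-square per degree of freedom 3.05 to 16.1). Exon lengths and canonical transcripts used GENCODE release 44. Gene overlaps and gene coordinates are those of the deposited spans.

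The members and lists were chosen with earlier results of these data known. Of the 38 members, 2 are not reported singly here and are left out of the plots; group counts, medians and sums include them. The other 36 members are named; values by library are given for the 8 largest called changes, for EARS2 and FARS2, which go against the other calls of their class, and for the HARS1 and HARS2 pair, and for some others where they help; up to 5 called genes are named from each companion list. Alternatives were other scalings, filters, DESeq2 1.42.0, limma-voom 3.58.1, non-robust dispersions, a replicate block, omission of single libraries, genes without overlaps, and an offset for intron length.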

Additional observations from a re-analysis of the deposited data

How the results depend on the processing

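The cytosolic set had 13 to 15 falls and 0 rises under all alternatives that tested all 21 of them. With single libraries omitted, the falls were 13 to 15 in the cytosolic and 2 to 5 in the mitochondrial set (15 to 20 in all), and the rises 1 to 3, all mitochondrial. The medians ran from -0.35 to -0.28 and from -0.061 to -0.017. The cytosolic -0.28 (without siControl replicate 3) and the mitochondrial -0.017 (without siControl replicate 1) had moved beyond the spread between libraries. With all libraries, the median of the 21 cytosolic genes moved beyond that spread with total count scaling (-0.31) and the intron length offset (-0.36). For the 16 cytosolic genes without overlaps the main fit gave a median of -0.357, and the fit on genes without overlaps -0.375. That last setting tests 9518 genes in all, of which 1852 were higher and 1898 lower, and leaves 1 rise, that of FARS2, and 3 falls, PARS2 included, among 10 mitochondrial genes. Among all tested genes, 2091 to 3178 were higher and 2119 to 3216 lower with a library left out. Single genes near 0 changed sign without passing: LARS2 (-0.059) with the intron offset; LARS2 (-7.02e-04) and MARS2 (-0.016) on genes without overlaps; MARS2 without a filter (-0.0052) and in limma-voom (-0.0014); and, with a library left out, LARS2 (-0.029 to 0.053), MARS2 (-0.027 to 0.048) and AIMP2 (-0.0029 to 0.063). The cause was not tested. With the intron offset WARS2, YARS1 and MARS2 also passed (FDR 0.0332, 0.0240 and 0.0351); MARS2 has no intron, so its offset is that of the shortest introns. The replicate numbers share no source in the labels. Deviations of same-numbered libraries correlated at 0.040, 0.049 and 0.067, and those of differently numbered libraries lower, at -0.064 to 0.026. Whether same-numbered libraries share a source was not tested. With the replicate block 6166 genes were called, 5733 of them among the 5786, and 14 cytosolic and 4 mitochondrial genes fell and 2 rose. Low counts limit the precision for TARS3 and PARS2.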
